A study of Mus musculus with 2 samples.

Results

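The Myc and Max network was described here by 10 genes on Affymetrix mouse expression arrays: the paralogues Myc, Mycn and Mycl, their obligate partner Max, and the partners of Max that repress, Mxd1, Mxd3, Mxd4, Mxi1, Mnt and Mga. Members were found by name, as every probe set whose platform annotation gives exactly 1 of these genes, which returned 27 of 45101 probe sets and 10 of 18193 genes. They were selected on their names, but with the signals of these same 2 arrays already known, so that their values are a description and no test supports them. The material was epithelium of fetal lung from ICR mice at embryonic day 11, grown in Matrigel, a basement membrane gel, with FGF10, a growth factor that drives lung budding. Both cultures were first held for 4 days with CHIR99021, a small molecule that blocks glycogen synthase kinase 3 and thereby lets beta-catenin accumulate, and were then fragmented and embedded again for 2 days. One array measured epithelium in which CHIR99021 was kept for those 2 days, the other epithelium from which it was withdrawn. There was 1 array per condition, the labels name no genetic change, and both cultures had seen the inhibitor.

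Myc proteins bind DNA only as heterodimers with Max, mostly at the E-box, and activate genes of ribosome production, metabolism and cell division. Mxd proteins, Mxi1, Mnt and Mga also pair with Max, bind the same sites and recruit Sin3 and other corepressors, so the balance of partners sets the output of shared targets. Myc is a classic target of beta-catenin in the gut, Mycn marks growing distal epithelium of the fetal lung, and glycogen synthase kinase 3 phosphorylates Myc protein and thereby marks it for degradation by the Fbxw7 ubiquitin ligase. The arrays read RNA only and hold no measure of that protein step.

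The promoters of the network show which members carry the network's own binding letters. Promoter windows from 250 bases before to 50 bases after a transcript start were found in RefSeq (build GRCm38.p6) for 9 members, in 11 windows. The member without a window was Myc, whose promoter was therefore not searched for either motif. The E-box CACGTG, which reads the same on both strands, was in 3 windows, those of Max, Mxd4 and Mnt, and in 7.15% of all 32851 windows of that length in the table. The TCF/LEF core CTTTGA, searched on both strands (TCAAAG on the other), was in 1 window, that of Mycn, and in 5257 of the 32851 windows. Both motifs never occurred in the same window, so no matches overlapped. With 0 as the first base after the 250 upstream bases, the E-box began at -3 in Max (chr12:76962199-76962498, minus strand), -219 in Mxd4 (chr5:34187661-34187960, minus strand) and -123 in Mnt (chr11:74830674-74830973, plus strand), and the TCF/LEF core at -13 in Mycn (chr12:12941787-12942086, minus strand). These 4 windows are printed because they alone among the members' windows hold either motif, which is in capitals.
Mycn: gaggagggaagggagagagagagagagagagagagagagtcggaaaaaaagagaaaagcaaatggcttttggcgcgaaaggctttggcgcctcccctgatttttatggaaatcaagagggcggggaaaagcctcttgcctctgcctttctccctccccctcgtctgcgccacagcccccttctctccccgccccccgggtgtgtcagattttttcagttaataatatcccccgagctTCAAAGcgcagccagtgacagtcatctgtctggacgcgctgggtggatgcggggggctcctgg
Max: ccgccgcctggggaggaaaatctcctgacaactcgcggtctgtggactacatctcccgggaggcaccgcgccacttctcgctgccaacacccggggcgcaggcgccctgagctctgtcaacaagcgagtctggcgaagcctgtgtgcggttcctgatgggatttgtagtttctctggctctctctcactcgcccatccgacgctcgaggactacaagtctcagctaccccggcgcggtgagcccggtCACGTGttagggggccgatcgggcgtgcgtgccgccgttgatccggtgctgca
Mxd4: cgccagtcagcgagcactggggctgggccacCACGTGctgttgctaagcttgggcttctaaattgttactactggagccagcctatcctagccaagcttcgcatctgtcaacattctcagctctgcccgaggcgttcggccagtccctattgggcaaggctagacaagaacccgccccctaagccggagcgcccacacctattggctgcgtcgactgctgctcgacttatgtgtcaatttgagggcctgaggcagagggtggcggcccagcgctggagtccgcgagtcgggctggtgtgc
Mnt: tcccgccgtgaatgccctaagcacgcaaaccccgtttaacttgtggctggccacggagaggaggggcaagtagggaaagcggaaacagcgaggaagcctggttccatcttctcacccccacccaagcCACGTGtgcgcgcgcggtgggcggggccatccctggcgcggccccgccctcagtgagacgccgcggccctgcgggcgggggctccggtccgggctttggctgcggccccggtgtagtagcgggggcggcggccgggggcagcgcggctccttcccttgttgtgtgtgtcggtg
The 3 members with an E-box in the window had log2 ratios, CHIR99021 kept over withdrawn, of -0.88 for Max, -2.25 for Mxd4 and -0.69 for Mnt, and Mycn with the TCF/LEF core had 0.05, by their brightest probe sets as described below. Mycl, Mxd1, Mxd3, Mxi1 and Mga had neither set of letters in the window, from which nothing follows about binding.

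Odorant and pheromone receptor genes, not thought to be active in lung, set each array's background floor at the 95th percentile of their probe sets, a signal of 12.7 with CHIR99021 kept and 19.2 with it withdrawn. Log2 ratios are CHIR99021 kept over withdrawn, on the deposited scale, with values below a floor raised to it. Beside a signal, "kept" and "withdrawn" name the array with CHIR99021 kept and the array with it withdrawn. A fold with 1 array below its floor is a bound, written "at least", and a gene counted as higher or lower at 2-fold. Of the 27 member probe sets, 20 were above the floor on both arrays, 2 with CHIR99021 withdrawn only, 1 with CHIR99021 kept only, and 4 on neither. At least 1 probe set of each of the 10 members was measured.

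The 3 Wnt target genes read as a check on the labels, Axin2, Lef1 and Sp5, were higher with CHIR99021 kept. Axin2, a feedback inhibitor of Wnt signalling, had a signal of 267 with CHIR99021 kept and 58.2 with it withdrawn, Lef1 225 kept and 29.8 withdrawn, and Sp5 101 kept and 23.3 withdrawn. RNA on the array with CHIR99021 had the larger 3' bias: its 3' to 5' ratio was 3.18 for beta-actin and 1.62 for Gapdh, against 1.29 and 0.737 with CHIR99021 withdrawn. The part of this bias in the ratios below was not tested. Among epithelial markers, 9 of 9 were above the floor on at least 1 array, with summed signals of 26956 with CHIR99021 kept and 41854 with it withdrawn. Of these 9 markers 4 were at least 2-fold lower and 1 higher, where 18.4% of all measured genes were lower and 1.9% higher. By their brightest probe sets, Epcam (3743 kept and 3846 withdrawn) and Sftpc (8500 kept and 8808 withdrawn) were nearly equal. Foxa2 (log2 ratio -0.49) and Cdh1 (log2 ratio -0.84) were lower by less than 2-fold. Nkx2-1, the lung identity factor, was below the floor with CHIR99021, at 5.84 kept against 52.0 withdrawn. The keratins Krt8 (3151 kept and 7715 withdrawn) and Krt18 (2834 kept and 6738 withdrawn) and the ligand Shh (2557 kept and 5662 withdrawn) were lower as well. Krt8, Krt18 and Shh were within 2-fold after median centring, while Nkx2-1 was still at least 2-fold lower. After loess, quantile normalization and scaling on hybridization controls, Nkx2-1, Krt8 and Krt18 were still at least 2-fold lower, while Shh was within 2-fold. Sox9, a factor of distal tip progenitors, was the 1 higher, at 771 kept and 70.1 withdrawn, 11.0-fold higher. Of 10 mesenchymal markers, with summed signals of 614 kept and 687 withdrawn, 5 were measured, all above both floors and within 2-fold. These were Vim (245 kept and 257 withdrawn), Acta2 (194 kept and 199 withdrawn), Col3a1 (54.6 kept and 88.7 withdrawn), Col1a2 (49.3 kept and 63.8 withdrawn) and Col1a1 (35.8 kept and 24.7 withdrawn). Pdgfra, Pdgfrb, Tbx4, Fgf10 and Twist1 were below the floor on both arrays by their brightest probe sets. A dimmer Pdgfra probe set was below the floor at 5.25 kept and above it at 24.7 withdrawn. Measured members of the other marker lists were 1 of 5 for endothelium, 1 of 4 for blood, 1 of 3 for mesothelium and 2 of 3 for neurons, with summed signals of at most 39.9 with CHIR99021 kept and 58.7 with it withdrawn in any of these lists. In such bulk samples, fewer cells of a type and less RNA per cell cannot be told apart.

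Myc and Mycl were lower with CHIR99021 kept, while Mycn was nearly equal by its brightest probe set. Myc, the widely expressed paralogue, had a signal of 41.5 with CHIR99021 kept and 263 with it withdrawn, 6.32-fold lower (log2 ratio -2.66). It was read by 1 probe set (1424942_a_at), so no second reading of Myc on these arrays could be made.

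Mycn, the paralogue of embryonic progenitor cells, had 1464 with CHIR99021 kept and 1418 with it withdrawn by probe set 1417155_at, a log2 ratio of 0.05. Its dimmer probe sets read lower with CHIR99021: 1425922_a_at had 61.1 kept and 128 withdrawn, a log2 ratio of -1.07, and 1425923_at had 21.3 kept and 37.4 withdrawn, a log2 ratio of -0.81. The probe sets of Mycn therefore disagreed, and the median of the 3 log2 ratios was -0.81. Across all 5335 genes with 2 or more probe sets above both floors, the log2 ratio of a further probe set minus that of the brightest had a median of -0.21, and 13.8% of 9179 lay at least 1 below it.

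Mycl, the paralogue first found in lung cancer, was above the floor only with CHIR99021 withdrawn. Probe set 1434777_at had 9.67 with CHIR99021 kept and 77.0 with it withdrawn, at least 6.05-fold lower, and 1422088_at had 9.33 kept and 31.4 withdrawn, at least 2.46-fold lower. The last one, 1422087_at, was below the floor on both arrays, with 1.47 kept and 11.2 withdrawn.

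The paralogues thus differed unequally between the cultures. The log2 ratio of Myc minus that of Mycn was -2.71 by the brightest Mycn probe set, and -1.59 and -1.85 by the others. A common shift of an array cancels in these differences, and after loess, which lets the shift vary with signal, they were -2.41, -1.60 and -1.90. The ratio of Myc was below that of every Mycn probe set under each of the 5 scalings run.

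**Figure D1:**
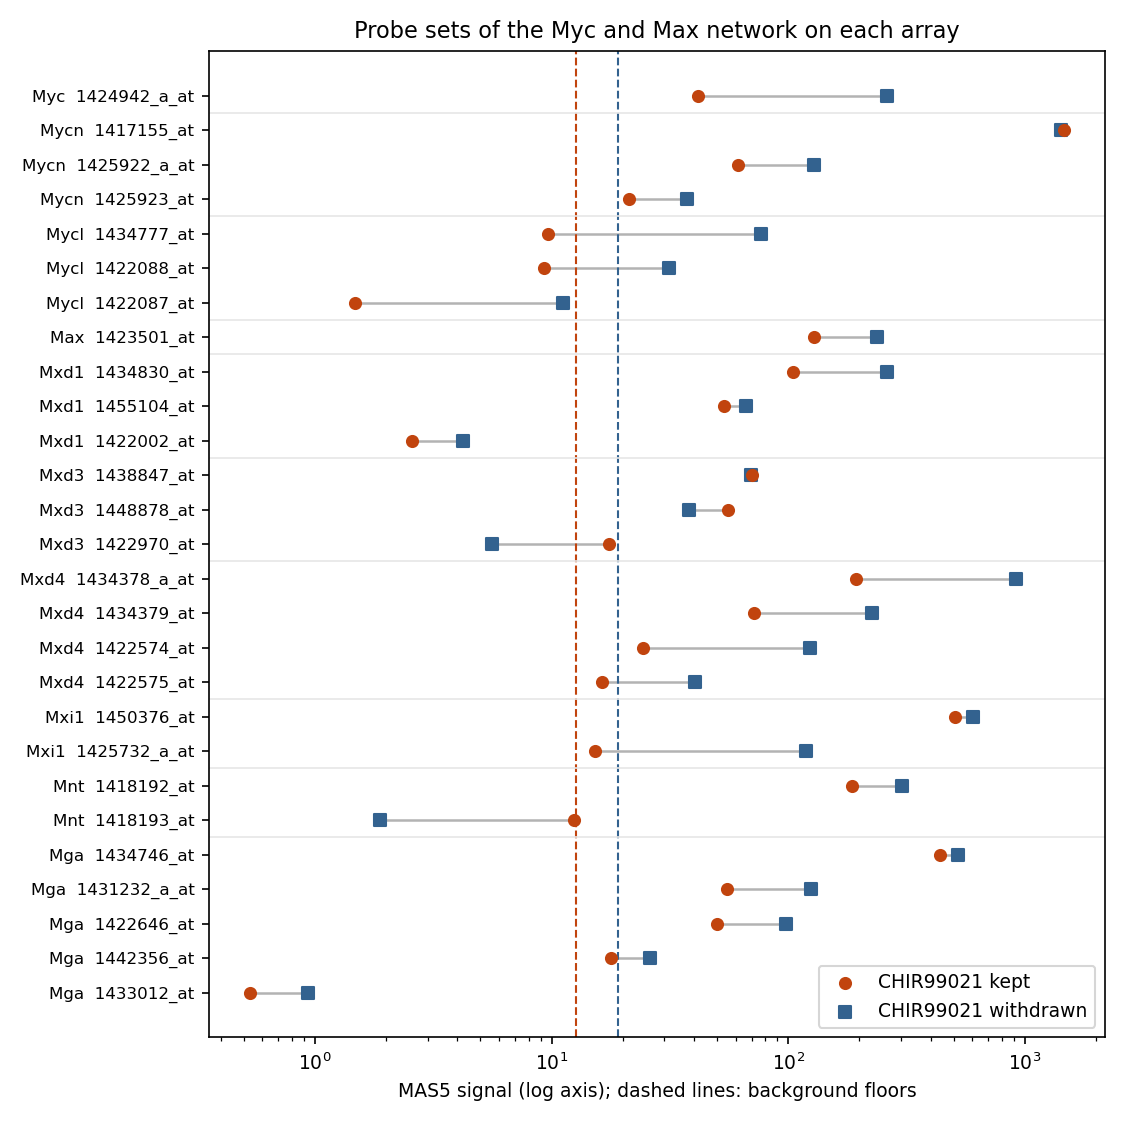
MAS5 signal (log axis) of the 27 member probe sets, 1 row each, with CHIR99021 kept (circles) and withdrawn (squares), and each array's background floor as a dashed line. The circles of Myc, Mycl and all 4 Mxd4 probe sets lie left of their squares, whereas the symbols of the brightest Mycn and Mxd3 probe sets coincide.

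Max, the shared partner, was lower by less than 2-fold. Its 1 probe set (1423501_at) had 129 with CHIR99021 kept and 237 with it withdrawn, a log2 ratio of -0.88. Its ratio lay above those of Myc and Mycl and below that of the brightest Mycn probe set.

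Among the Mxd repressors, Mxd4 was lower with CHIR99021 by each of its probe sets, while Mxd3 was not. Mxd4, a repressor associated with cells leaving division, had 193 with CHIR99021 kept and 917 with it withdrawn by probe set 1434378_a_at, 4.75-fold lower (log2 ratio -2.25). Its other probe sets were 5.09-fold lower (24.2 kept against 123 withdrawn), 3.16-fold lower (71.5 kept against 226 withdrawn) and 2.46-fold lower (16.3 kept against 40.2 withdrawn). As deposited, all 4 readings passed 2-fold in the same direction, the most of any member.

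Mxd1, a repressor that appears as cells differentiate, had 105 with CHIR99021 kept and 261 with it withdrawn by probe set 1434830_at, 2.49-fold lower. The dimmer 1455104_at had 53.7 kept and 66.1 withdrawn, a log2 ratio of -0.30, and the last, 1422002_at, was below the floor on both arrays. As deposited, the measured probe sets of Mxd1 shared a sign but not a size, and only the brighter one passed 2-fold.

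Mxd3, the Mxd gene known for its expression in dividing cells, had 70.0 with CHIR99021 kept and 69.3 with it withdrawn by probe set 1438847_at, a log2 ratio of 0.01. A second probe set, 1448878_at, had 55.6 kept and 38.2 withdrawn, a log2 ratio of 0.54. With the third, 1422970_at, the signal was 17.4 with CHIR99021 kept and below the floor at 5.59 with it withdrawn, and no fold is given because the floors differ. Mxd3 was the only member none of whose measured probe sets had a lower signal with CHIR99021 kept, and the log2 ratio of Mxd4 minus that of Mxd3 was -2.26.

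Mxi1, a repressor that opposes Myc and is also called Mad2, gave readings that could not be joined. Probe set 1450376_at had 508 with CHIR99021 kept and 606 with it withdrawn, a log2 ratio of -0.25, while 1425732_a_at had 15.3 kept and 119 withdrawn, 7.75-fold lower. The dimmer log2 ratio minus the brighter was -2.70. Of the 9179 further probe sets on the array 58, or 0.632%, lay at least 2.5 below their gene's brightest one, a limit set after this value was seen. Mxi1 has 3 promoter windows in the RefSeq table, more than any other member, but the target of each probe set along the transcript was not analysed here.

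The large repressors Mnt and Mga were within 2-fold by their brightest probe sets. Mnt, a widely expressed partner of Max that opposes Myc, had 187 with CHIR99021 kept and 302 with it withdrawn by probe set 1418192_at, a log2 ratio of -0.69, and 12.4 kept and 1.88 withdrawn, below the floor on both, by 1418193_at. Mga, a T-box and E-box protein of a Polycomb complex, had 437 kept and 522 withdrawn by probe set 1434746_at, a log2 ratio of -0.25. Its 3 dimmer probe sets above the floors had log2 ratios of -1.18, -0.97 and -0.55, and the fifth was below the floor on both arrays. As with Mycn, the brightest probe set of Mga gave the highest ratio.

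Counted by the brightest probe set, 4 of the 10 members (Myc, Mycl, Mxd4 and Mxd1) were at least 2-fold lower with CHIR99021 and 0 were higher, where 18.4% of the 12917 measured genes were lower and 1.9% higher. The median log2 ratio of the members was -0.79, beside -0.42 over all measured genes. Counted by probe set, 11 of the 23 measured ones were at least 2-fold lower and 0 higher, where 24.2% of 23972 single-gene probe sets were lower and 1.51% higher. As the members were chosen with this comparison known, nothing is read from these shares.

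**Figure D2:**
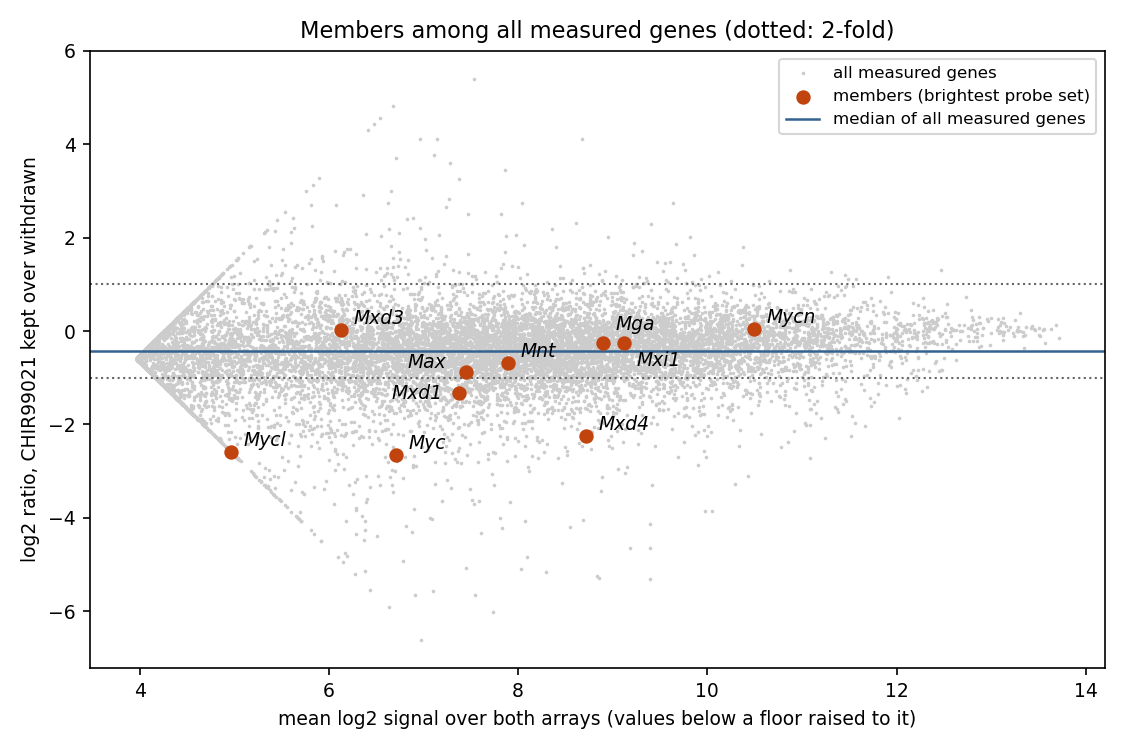
Log2 ratio (CHIR99021 kept over withdrawn) against mean log2 signal for the measured genes (grey), with the 10 members named, the median of all measured genes as a line and 2-fold as dotted lines. Myc, Mycl, Mxd4 and Mxd1 lie below the lower dotted line. Mycl lies on the lower edge of the cloud, where the floor sets the ratio.

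The deposited arrays differ in overall level, so the members were read again after other scalings. After median centring, which removed a shift of -0.48 from all log2 ratios, Myc, Mycl and Mxd4 were still at least 2-fold lower, 3 of 10, where 7.44% of all genes were, and 0 were higher, where 5.91% were. After loess the count was again 3 of 10 lower, where 7.03% of genes were, and 0 higher, where 6.45% were. Myc had a log2 ratio of -2.18 after median centring and -2.08 after loess, Mycl -2.12 and -1.96, and Mxd4 -1.77 and -1.80. The dimmest Mxd4 probe set was within 2-fold at -0.82 and -0.67, while the other Mxd4 probe sets were still at least 2-fold lower. Mxd1 was within 2-fold at -0.84 and -0.77 by its brightest probe set, and its dimmer 1455104_at changed sign, to 0.18 and 0.31. Brightest probe sets of Mxi1 and Mga changed sign, to 0.22 each after median centring and to 0.16 and 0.17 after loess. Mycn came to 0.52 and 0.33, and Mxd3 to 0.49 and 0.62, with the second Mxd3 probe set past 2-fold at 1.02 and 1.16. Max (-0.40 and -0.34) and Mnt (-0.22 and -0.18) kept their sign.

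**Figure D3:**
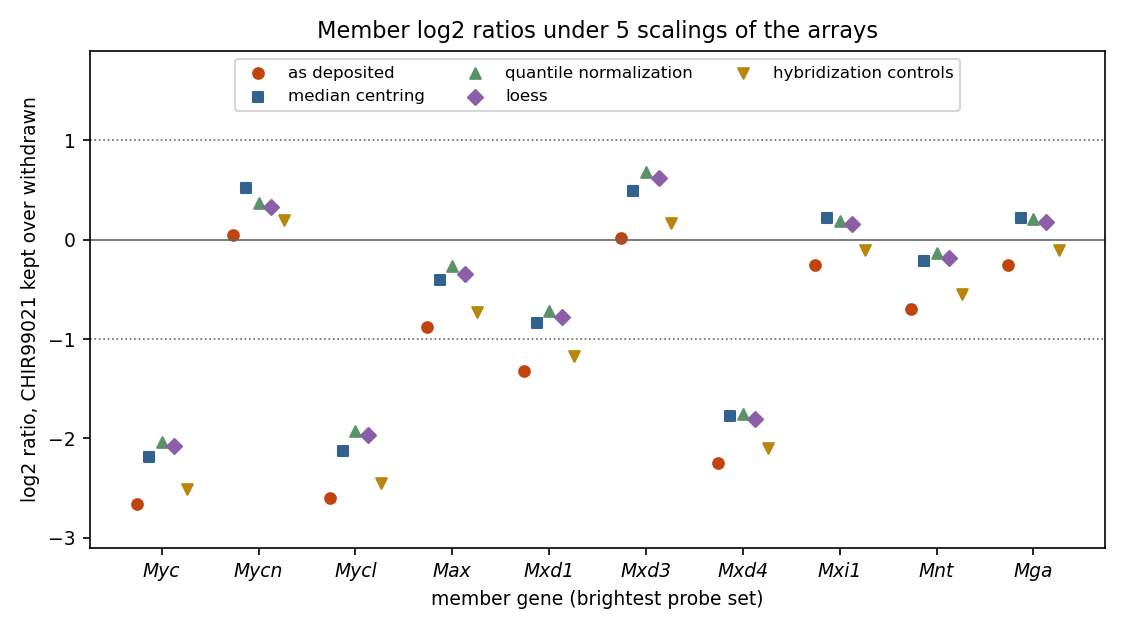
Log2 ratio (CHIR99021 kept over withdrawn) of each member's brightest probe set as deposited and after 4 other scalings of the arrays, with 2-fold as dotted lines. Myc, Mycl and Mxd4 lie below -1 under all 5, Mxd1 crosses that line, and Mxi1 and Mga cross 0.

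The genes whose pair of signals lay nearest to those of a member were found by the distance between log2 signals over the 2 arrays. For Myc they were Ugt8a, an enzyme of galactolipid synthesis (40.1 kept and 266 withdrawn, distance 0.05), Capg, an actin-capping protein (41.0 kept and 251 withdrawn, distance 0.06), and Samd5 (41.7 kept and 250 withdrawn, distance 0.07). For Mycn they were Tor1aip2, a torsin-binding membrane protein (1452 kept and 1446 withdrawn, distance 0.03), Timm23, a channel of mitochondrial protein import (1489 kept and 1446 withdrawn, distance 0.04), and Gtf2a2, a subunit of transcription factor TFIIA (1507 kept and 1417 withdrawn, distance 0.04). With 2 arrays such likeness holds only a level and a ratio.

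Genes that lie beside Myc and Mycn in the genome were within 2-fold. Pvt1, the non-coding neighbour of Myc, had 52.2 with CHIR99021 kept and 42.6 with it withdrawn by its brightest probe set, a log2 ratio of 0.29. Its dimmer probe sets above both floors had log2 ratios of -0.47 and -0.64, so they disagreed in sign with the brightest, and none came near the -2.66 of Myc. Ddx1, an RNA helicase gene next to Mycn, had 1582 kept and 1732 withdrawn, a log2 ratio of -0.13, and -0.64 by its other probe set.

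The Mlx branch is a parallel network in which Mlx takes the place of Max and senses glucose metabolites. Mlx had 109 with CHIR99021 kept and 141 with it withdrawn, a log2 ratio of -0.37, and its partner Mlxip, also called MondoA, had 99.7 kept and 175 withdrawn, a log2 ratio of -0.81. Mlxipl, also called ChREBP, was just above the floor with CHIR99021 kept and below it, at 3.77, with CHIR99021 withdrawn. Their shared targets were lower as deposited. Txnip, an inhibitor of glucose uptake, had 487 kept and 1220 withdrawn, a log2 ratio of -1.32, and 10.3 kept and 317 withdrawn by its other probe set, at least 24.9-fold lower. Arrdc4, a related arrestin, had 71.2 kept and 206 withdrawn, 2.90-fold lower, and 2.10-fold lower by its other probe set. Of the 5 measured genes of this branch 2 were lower and 0 higher, beside 18.4% and 1.9% of all measured genes, with a median log2 ratio of -0.81. After median centring 1 was lower, beside 7.44% of all genes. This was Arrdc4 at -1.06, with Txnip at -0.85 by its brightest probe set and a median of -0.33. After loess 0 were lower, beside 7.03% of all genes, with Txnip at -0.95, Arrdc4 at -0.97 and a median of -0.25.

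Genes for proteins that work with the network were mostly within 2-fold. Over all measured genes, 1.9% were higher and 18.4% lower as deposited. These shares were 5.91% and 7.44% after median centring, and 6.45% and 7.03% after loess. Of 13 measured coactivators 0 were higher and 0 lower, with a median log2 ratio of -0.14, and the counts stayed at 0 after median centring and loess, with medians of 0.34 and 0.26. Kat5, the acetyltransferase Tip60, had 221 with CHIR99021 kept and 407 with it withdrawn, a log2 ratio of -0.88, and was 2.02-fold lower by its other probe set. Kat2a, the acetyltransferase Gcn5, had 480 kept and 335 withdrawn, a log2 ratio of 0.52, with 1 of its 3 probe sets opposite in sign at -0.49. Of 12 measured corepressors and Polycomb partners 1 was lower and 0 higher, with a median of -0.17. That gene was Sin3a, the scaffold that Mxd proteins and Mnt recruit, with 142 kept and 329 withdrawn, 2.31-fold lower, and 2.09-fold and 3.45-fold lower by its other probe sets. Its brightest probe set was within 2-fold after median centring, at -0.73, and after loess, at -0.69, where 0 of the 12 were lower and 0 higher and the list medians were 0.31 and 0.21. Of 9 measured further E-box factors 0 were higher and 0 lower, from Tfeb, a lysosomal regulator, at -0.79 to Tfap4 at 0.56, and Tfap4 alone passed 2-fold, upward, after median centring and after loess.

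Among 18 measured genes for turnover of Myc protein 1 was higher and 1 lower, beside 1.9% and 18.4% of all measured genes, with a median log2 ratio of -0.10. After median centring 3 were higher and 0 lower, beside 5.91% and 7.44% of all genes, with a median of 0.38. After loess 2 were higher and 0 lower, beside 6.45% and 7.03% of all genes, with a median of 0.26. Skp2, a ubiquitin ligase subunit that acts on Myc and on cell cycle inhibitors, had 924 with CHIR99021 kept and 414 with it withdrawn, 2.23-fold higher. Its 6 probe sets ranged from 2.23-fold higher to at least 6.48-fold lower, the lowest from a probe set at 12.0 kept and 82.4 withdrawn, so they disagreed. Fbxo32, a muscle-atrophy ubiquitin ligase subunit, had 22.7 kept and 62.4 withdrawn, 2.75-fold lower, and 3.60-fold lower by the next probe set. Gsk3b, which encodes a target of the inhibitor itself, had 566 kept and 1051 withdrawn, a log2 ratio of -0.89, with other probe sets from -1.02 to 0.20, and Gsk3a had 956 kept and 664 withdrawn, a log2 ratio of 0.53. Fbxw7, named here after its values were seen, had 172 kept and 188 withdrawn, a log2 ratio of -0.13, and -0.60 by its other probe set.

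Genes that Myc is known to activate were mostly within 2-fold, and the sign of their median depended on the scaling. In each setting given here their median, taken over 4 lists together, lay above that of all measured genes. Over 4 lists, 74 genes were measured, of which 1 was at least 2-fold higher with CHIR99021 and 1 lower as deposited, beside 1.9% and 18.4% of all measured genes. After median centring 9 were higher and 1 lower, beside 5.91% and 7.44% of all genes, and after loess 8 were higher and 1 lower, beside 6.45% and 7.03%. Among the 74, 59 (79.7%) lay above the median of all measured genes, and their median log2 ratio was -0.07, beside -0.42 for all genes. Below the median of all genes lay 2 of 13 coactivators, 2 of 12 corepressors, 2 of 9 further E-box factors and 6 of 18 turnover genes. So did 3 of 5 genes of the Mlx branch and 7 of 12 genes that Myc is known to repress. The median of the 74 was 0.41 after median centring, beside 0.05 for all genes, and 0.31 after loess, beside 0.07. As deposited, with the median over the probe sets of each gene, it was -0.23, beside -0.50 for all genes. The same values for all genes stand beside the median of each single list.

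For ribosome biogenesis, 0 of 25 measured genes were higher and 0 lower, beside 1.9% and 18.4% of all measured genes. The median log2 ratio of the list was 0.07. It was 0.54 after median centring, 0.43 after loess and -0.25 with the median over probe sets. Nop56, Fbl and Tcof1 passed 2-fold upward after median centring and after loess. With 3 of 25 higher and 0 lower in both, the shares of all genes were 5.91% and 7.44% after median centring. After loess they were 6.45% and 7.03%. Nop56, a core protein of small nucleolar ribonucleoproteins, had 2087 with CHIR99021 kept and 1072 with it withdrawn, a log2 ratio of 0.96, but 569 kept and 768 withdrawn by its other probe set. Fbl, the rRNA methyltransferase fibrillarin, had 2009 kept and 1203 withdrawn, a log2 ratio of 0.74, and 1574 kept and 1358 withdrawn, a log2 ratio of 0.21, by its other probe set. Tcof1, a factor of rRNA transcription, had 255 kept and 166 withdrawn, a log2 ratio of 0.63. At the low end, Ncl, nucleolin, had 2648 kept and 4484 withdrawn, a log2 ratio of -0.76, with other probe sets above both floors from -2.10 to 0.23, and Nolc1, a nucleolar phosphoprotein, had 265 kept and 387 withdrawn, with dimmer probe sets past 2-fold at -1.44 and -1.89.

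For metabolism, 0 of 22 measured genes were higher and 0 lower, beside 1.9% and 18.4% of all measured genes. The median log2 ratio of the list was 0.13. It was 0.60 after median centring, 0.55 after loess and -0.16 with the median over probe sets. After median centring Slc7a5, Cad and Ahcy passed 2-fold upward, and after loess Slc7a5, Cad and Tyms. With 3 of 22 higher and 0 lower in both, the shares of all genes were 5.91% and 7.44% after median centring. After loess they were 6.45% and 7.03%. Slc7a5, an amino acid transporter, had 217 with CHIR99021 kept and 114 with it withdrawn, a log2 ratio of 0.93. Cad, an enzyme of pyrimidine synthesis, had 418 kept and 239 withdrawn, a log2 ratio of 0.81, and 0.93 by its other probe set. Ldha, lactate dehydrogenase, had 3460 kept and 4604 withdrawn, a log2 ratio of -0.41, and Prdx3, a mitochondrial peroxidase, 736 kept and 1150 withdrawn, a log2 ratio of -0.64. For translation, 0 of 10 measured genes were higher and 0 lower, beside the same shares of all genes, as deposited, after median centring and after loess. The list median was -0.25. It was 0.23 after median centring, 0.02 after loess and -0.31 with the median over probe sets. After loess it lay below the 0.07 of all measured genes. Lars, the lowest of the list, had 622 kept and 1110 withdrawn, a log2 ratio of -0.84. Eif4e, the cap-binding protein, had 1188 kept and 1656 withdrawn, a log2 ratio of -0.48.

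Cell cycle targets held the 2 genes past 2-fold as deposited. Ccnd2, cyclin D2, had 1952 with CHIR99021 kept and 5911 with it withdrawn, 3.03-fold lower, and its 6 other probe sets were 3.89-fold to 5.58-fold lower. Cdca7, a Myc target of dividing cells, had 788 kept and 349 withdrawn, 2.26-fold higher, and a log2 ratio of 0.47 by a dim probe set. Cks2, a subunit of cyclin-dependent kinases, had 3705 kept and 2018 withdrawn, a log2 ratio of 0.88, and E2f2 had 136 kept and 225 withdrawn, a log2 ratio of -0.72. Of 17 measured genes 1 was higher and 1 lower, beside 1.9% and 18.4% of all measured genes. Their median log2 ratio was 0.06, and it was 0.54 after median centring, 0.31 after loess and -0.28 with the median over probe sets. After median centring 3 were higher and 1 lower, beside 5.91% and 7.44% of all genes. After loess 2 were higher and 1 lower, beside 6.45% and 7.03%.

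Of 12 measured genes that Myc is known to repress, 5 were at least 2-fold lower and 1 higher with CHIR99021, beside 18.4% and 1.9% of all measured genes, with a median log2 ratio of -0.62. After median centring 4 were lower and 1 higher, beside 7.44% and 5.91% of all genes, with Cdkn1c within 2-fold at -0.87 and a median of -0.14. After loess 5 were lower and 1 higher, beside 7.03% and 6.45% of all genes, with a median of -0.29. Ndrg1, a stress and differentiation gene, had 41.3 with CHIR99021 kept and 277 with it withdrawn, 6.71-fold lower, and 4.54-fold, 3.40-fold and at least 2.53-fold lower by its other probe sets. Gadd45b, a stress response gene, had 102 kept and 434 withdrawn, 4.28-fold lower, and Cebpa, a differentiation factor, 138 kept and 581 withdrawn, 4.21-fold lower. The other lower genes, named after their values were seen, were Cdkn2b, an inhibitor of cyclin-dependent kinases, at 4.08-fold, and Cdkn1c, a further one, at 2.54-fold. Cdkn1a, the p21 inhibitor, had 1771 kept and 838 withdrawn, 2.11-fold higher, and a log2 ratio of 0.25 by a dimmer probe set.

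**Figure D4:**
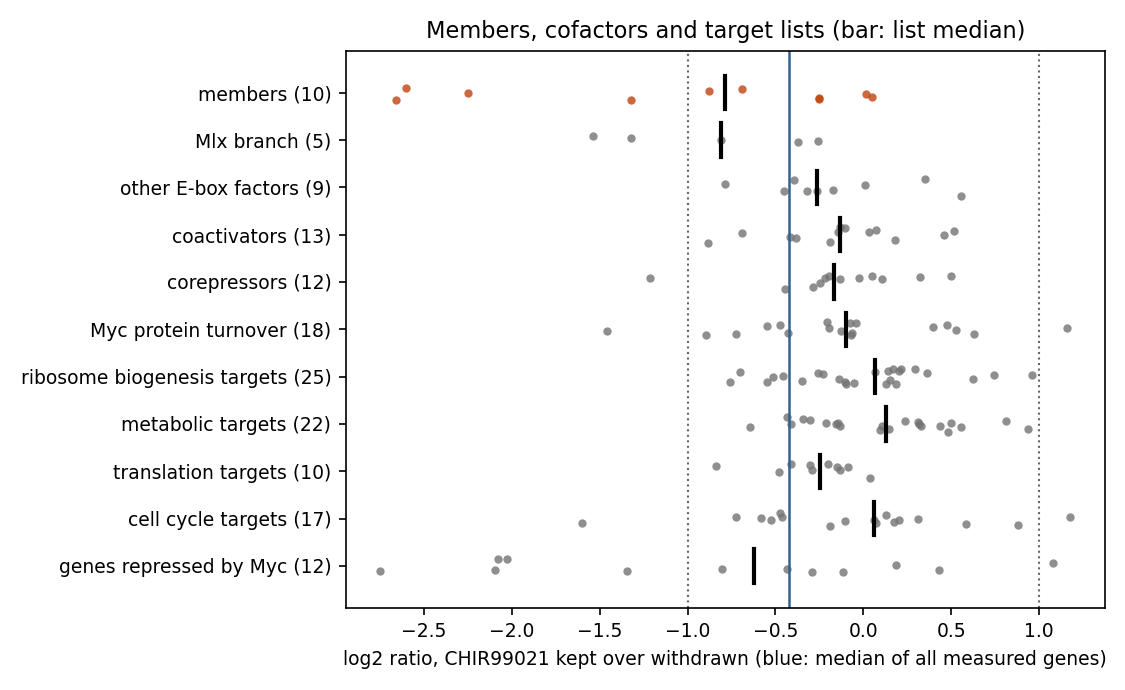
Log2 ratio (CHIR99021 kept over withdrawn) of the 10 members and of the measured genes in each list of cofactors and targets (1 point per gene, spread vertically for legibility), with list medians as black bars, the median of all measured genes in blue and 2-fold dotted. The medians of the other E-box factor, coactivator, corepressor, Myc protein turnover, ribosome biogenesis, metabolic, translation and cell cycle lists lie right of the blue line. Those of the members, the Mlx branch and the genes repressed by Myc lie left of it, all on the deposited scale.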

How the data were processed

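Affymetrix arrays were hybridised with biotinylated cRNA made from 100 ng of total RNA by a 3' in vitro transcription kit, per the labels' protocols. The intensity values deposited by the authors are linear MAS5 signals, as named in the submitters' processing notes. Version and scaling target are not given in the sources used here. MAS5 subtracts mismatch signal, which makes dim probe sets noisy, and presence calls were not used. The deposited signals ran from 0.0232 to 13693 with CHIR99021 kept and from 0.0201 to 14129 with it withdrawn, with medians over probe sets other than controls of 20.3 and 32.9. The number of arrays, 1 per condition, limits the precision, and no p-value was computed.

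Probe sets were named from the platform annotation, and the Entrez identifiers of all 27 member probe sets gave the same symbols in a RefSeq table of GRCm38.p6. Among its single-gene probe sets the one brightest on average (log2) stood for a gene, which counted as measured when above the floor on at least 1 array. The floor came from 80 receptor probe sets. Within genes, log2 ratios of probe sets had an SD of 0.557, a difference between probes and not between cultures. Members, gene lists and settings were chosen with earlier results of these data known. The lists came from general knowledge of Myc biology. Named genes are all members, up to 3 extremes of either sign per list, the Mlx branch, the neighbours of Myc and Mycn, 3 Wnt targets, and 3 nearest genes for Myc and for Mycn. Outside this rule, Fbxw7, Cdkn2b, Cdkn1c, Sox9, Krt8, Krt18, Shh, Ahcy and Tyms were named after their values were seen, and other markers in the check of the tissue. Alternatives were median centring, quantile normalization, loess (span 0.4), scaling on 18 hybridization control probe sets, floors at the percentiles 90 and 99 or none, an offset of 16, the median over probe sets, leaving out suffixes _x_at and _s_at, and folds of 1.5 and 3. Python 3.11.15, numpy 2.4.6, pandas 2.3.3, statsmodels 0.14.6 and matplotlib 3.10.9 were used, and the counting was tested on simulated data.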

Additional observations from a re-analysis of the deposited data

How the results depend on the processing

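Each value rests on 1 array per condition, and no paired analysis was possible because no condition had a replicate. With no replicate spread, a value counts here as moved when it shifted by more than the SD of 0.557 between probe sets of a gene, and a count when it changed by over 1.5 times. The number of members at least 2-fold lower was 4 as deposited, 3 after median centring, quantile normalization and loess, and 4 after scaling on hybridization controls, with other floors, with an offset, without suffixed probe sets and with the median over probe sets, where Mxi1 (-1.60) took the place of Mxd1 (-0.81). It was 6 at 1.5-fold and 3 at 3-fold, and the number higher was 0 in all of these. Of all measured genes, 18.4% were lower and 1.9% higher as deposited. These shares were 7.44% and 5.91% after median centring, and 7.03% and 6.45% after loess. For the other settings the numbers of genes are given below. Over 10 alternatives the log2 ratio ran from -2.66 to -2.04 for Myc, from -2.99 to -1.70 for Mycl, from -2.25 to -1.75 for Mxd4 and from -0.81 to 0.52 for Mycn. The members' median moved to -0.20 after quantile normalization. Counts over all genes moved under several settings. Genes at least 2-fold higher and lower numbered 245 and 2380 as deposited, 763 and 961 with median centring, 953 and 830 with quantile normalization, 832 and 907 with loess, and 1213 and 4606 with no floor. They numbered 340 and 1811 after scaling on hybridization controls, 265 and 2463 with the floor at percentile 90, and 209 and 2089 at percentile 99. With an offset of 16 they numbered 177 and 1613, with the median over probe sets 189 and 2623, and without suffixed probe sets 234 and 2442. Of the 12917 genes measured as deposited, 652 were higher and 5005 lower at 1.5-fold, and 81 and 812 at 3-fold. Of 210 alternative values of the 10 member ratios and 11 list medians, 195 did not move, 15 did, and 0 called values changed sign. Counts of list genes under other scalings, given beside each list, were added after the data were seen. Signals near the floor limit Mycl, whose fold is a bound.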
